A study of Mus musculus and Homo sapiens with 180 samples.

Results

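MOLM13 cells edited at PCGF1 and treated with the Menin inhibitor VTP50469 for 48 h are described here against the same cells in DMSO. The libraries were taken from the MOLM13 knockout count table by column name, as the PCGF1 columns marked Menin or DMSO. They number 6, 3 for each treatment, among 27 libraries in the 9 groups of that experiment and 180 samples in the whole series. The study asked how the Polycomb complex PRC1.1 shapes the response of MLL-rearranged leukaemia to inhibitors of Menin and of the H3K79 methyltransferase DOT1L.

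MOLM13 is a human acute myeloid leukaemia line that carries the MLL-AF9 fusion. According to the methods, the PCGF1 knockout (KO) cells are a polyclonal population that expresses Cas9 and a guide against PCGF1, and the control cells carry a guide to a safe genomic site. PCGF1 KO cells received DMSO or 500 nM VTP50469. Libraries of control cells and of BCOR KO cells under the same treatments, and of PCGF1 KO cells given 5 μM of the DOT1L inhibitor SGC0946 for 72 h, were used for comparison, with 3 in each group. The DMSO libraries are labelled 72 h and the VTP50469 libraries 48 h, so time in culture and drug cannot be told apart. The labels name the mouse as the organism of these libraries, whereas the gene identifiers in the table are human.

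MLL fusion proteins keep leukaemia genes such as MEIS1 and the HOXA cluster transcribed. They depend on Menin, which joins them to chromatin, and on DOT1L. PRC1.1 is the variant Polycomb repressive complex that contains PCGF1, BCOR and KDM2B. It is drawn to unmethylated CpG islands and ubiquitinates histone H2A at lysine 119, a mark linked to repression. When MLL target genes fall, these blast cells can move towards granulocytes and monocytes, whose genes encode granule proteins, integrins and the NADPH oxidase.

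The 6 libraries held 4735730, 4377206 and 6196482 reads on genes in DMSO and 5438116, 5899695 and 5845573 with VTP50469. A further 36.3% to 43.6% of the reads in the table named no gene. In 3′ RNA-seq a read comes from the polyadenylated end, so counts scaled to library size (CPM) do not depend on gene length. A count of 3, taken as the floor, was 0.472 to 0.673 CPM per library. No label says that libraries of a group came from separate cultures, so p-values measure only the spread between these libraries, which may be technical.

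PCGF1 transcript was still read at 8.08, 3.36 and 4.72 CPM in DMSO and at 5.52, 3.70 and 6.19 CPM with VTP50469. The ranges overlapped, with a log2 fold change of −0.07 (SE 0.28). Control cells had 7.74 ± 0.626 CPM in DMSO (SD, n = 3). Small edits need not alter the number of 3′ reads, so these values do not check the knockout. The columns carry the tag G2, and the study's second PCGF1 guide matches it by name only. That guide is shown to place the edit, in hg38 at chr2:74505591-74505608 on the minus strand, which is also the strand of PCGF1. It lies in exon 7 of the canonical transcript, within the coding sequence, and its PAM is in capitals.
PCGF1 guide: gaggtacgccatctccggAGG

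Across 12140 genes that reached 2 CPM in 2 or more libraries, VTP50469 changed 1003 in PCGF1 KO cells, or 8.26% of those tested, by edgeR's quasi-likelihood test with a Benjamini-Hochberg adjusted p under 0.05. Of these, 597 rose (4.92%) and 406 fell (3.34%). The change was over 2-fold for 150 of the raised and 96 of the lowered genes. Protein-coding genes made up 550 of the raised and 367 of the lowered genes, and long noncoding RNAs 27 and 22. The libraries of the 2 treatments did not overlap for 977 of the changed genes, and for 26.5% of all genes tested. The median log2 fold change of all genes was 0.007. In bulk RNA, fewer cells of a type and less RNA per cell cannot be told apart.

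Most tested genes of the MLL fusion programme fell. In a list of 30 such genes, 26 were tested, of which 18 fell (69.2%, beside 3.34% of all genes tested) and 1, the adaptor gene LPXN, rose. Their median log2 fold change was −0.683. MEIS1, the homeobox cofactor of HOXA9, read 26.1, 29.6 and 26.8 CPM in DMSO and 3.13, 2.86 and 4.69 CPM with VTP50469. All 3 treated libraries lay far below the untreated ones, with a log2 fold change of −2.94 (SE 0.22, edgeR adjusted p = 1.962e-10). PBX3, a further partner of HOX proteins, read 167, 162 and 162 CPM against 30.9, 42.7 and 38.7 CPM. Its libraries were as clearly apart, at a log2 fold change of −2.12 (SE 0.12, edgeR adjusted p = 3.189e-13). MEF2C, a transcription factor of myeloid progenitors, read 193, 192 and 197 CPM against 39.8, 44.1 and 41.5 CPM. The fall was −2.21 on the log2 scale (SE 0.10, edgeR adjusted p = 1.511e-15), and libraries within a treatment hardly differed.

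SKIDA1 fell from 13.1, 14.1 and 15 CPM to 2.21, 1.68 and 2.51 CPM, and the cytokine signalling inhibitor SOCS2 from 25.3, 25.1 and 28.2 CPM to 5.71, 6.39 and 5.52 CPM. Neither gene overlapped between treatments, and their log2 fold changes were −2.71 and −2.15. The neighbours REEP3 and JMJD1C, whose annotated 5′ ends overlap on chromosome 10, changed by −1.34 and −1.19. Smaller decreases were measured for CDK6 (−0.75), RUNX2 (−0.68), EMB (−0.68), ZEB2 (−0.63), BCL2 (−0.61) and the receptor tyrosine kinase FLT3 (−0.60). EMB, which encodes a membrane glycoprotein, read 114, 119 and 100 CPM in DMSO and 70.9, 64.7 and 71.8 CPM with the drug. These ranges did not overlap although the change was under 2-fold.

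The HOXA cluster was uneven. HOXA11 read 43.9, 43.7 and 48.3 CPM in DMSO and 21.0, 17.5 and 21.3 CPM with VTP50469, a log2 fold change of −1.19 (SE 0.18, edgeR adjusted p = 2.845e-05). HOXA9, the HOX gene most closely tied to MLL leukaemia, moved from 80.6, 89.2 and 87.5 CPM to 74.2, 57.3 and 66.5 CPM. This change of −0.38 (SE 0.11, edgeR adjusted p = 0.02304) passed the threshold here and lost its call in 5 of 12 alternative analyses. HOXA10 read 43.5, 46.9 and 38.9 CPM against 46, 43.9 and 44.5 CPM, with overlapping ranges and a log2 fold change of 0.06 (edgeR adjusted p = 0.8557). HOXA3, HOXA5 and HOXA13 did not pass the test, and HOXA4, HOXA6 and HOXA7 were below the expression filter. Reads of HOXA9 and HOXA10 may be divided between overlapping gene models.

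Several of the strongest decreases were in genes outside that list. EFNA5, which encodes the Eph receptor ligand ephrin A5, read 36.7, 39 and 31.5 CPM in DMSO and 1.66, 1.85 and 1.84 CPM with VTP50469. Its log2 fold change of −4.30 (SE 0.24, edgeR adjusted p = 2.148e-13) came with 3 treated libraries that were nearly equal. The zinc finger gene ZNF521, active in immature blood cells, fell from 46, 45.5 and 54 CPM to 4.79, 3.70 and 5.86 CPM. No library of either gene reached the range of the other treatment. CDK6-AS1, the noncoding gene that starts beside CDK6, fell from 16.2, 17.5 and 16.2 CPM to 0.736, 0.673 and 0.502 CPM. The strand setting of the counting is not stated, so reads in its short overlap with CDK6 could come from either gene.

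OTP and NR2F1, developmental transcription factor genes that are not typical of blood cells, were read in PCGF1 KO cells and fell with the drug. OTP went from 27.1, 33.9 and 34.0 CPM to 3.31, 2.35 and 3.01 CPM, and NR2F1 from 194, 208 and 179 CPM to 50.8, 44.2 and 29.5 CPM. The treatments did not overlap for either, with a log2 fold change of −3.45 for OTP (SE 0.27, edgeR adjusted p = 1.256e-09). That of NR2F1 was −2.22 (SE 0.17) at an edgeR adjusted p = 2.188e-10. In control cells NR2F1 was at 0.810 ± 0.564 CPM in DMSO, near the floor. TBC1D30 and TMEM255A completed the 12 lowered genes with the largest changes, at −2.65 and −2.14.

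**Figure D1:**
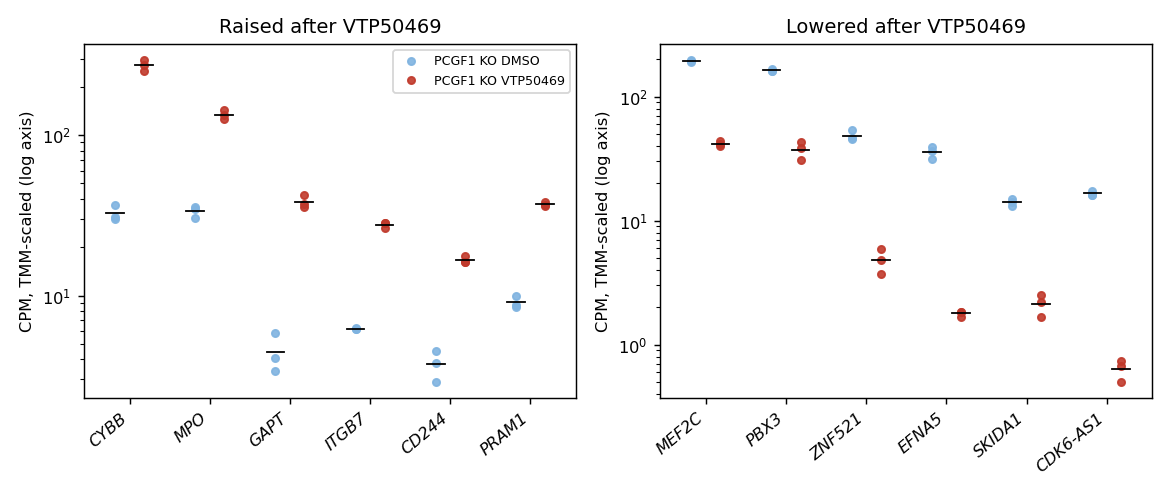
Level of 12 genes in each PCGF1 KO library, in TMM-scaled CPM on a log axis, with 3 DMSO and 3 VTP50469 libraries as points and the group mean as a bar. For CYBB the VTP50469 points lie between 251 and 293 CPM, above DMSO points between 29.9 and 36.8 CPM, and for EFNA5 they lie between 1.66 and 1.85 CPM, below DMSO points between 31.5 and 39 CPM.

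Part of the granule genes rose. Of 15 primary granule genes 12 were tested, of which 6 rose (50%, beside 4.92% of all genes tested) and the others did not pass, with a median log2 fold change of 0.286. MPO, the myeloperoxidase of azurophil granules, read 30.5, 35.9 and 34.6 CPM in DMSO and 125, 133 and 144 CPM with VTP50469. The log2 fold change was 1.99 (SE 0.11, edgeR adjusted p = 2.148e-13), with the treatments far apart. LYZ (1.95), BPI (1.58), RNASE3 (1.06), CTSG (0.57) and RNASE2 (0.31) also rose, from levels between 1.3 ± 0.240 CPM for LYZ and 1087 ± 10.8 CPM for RNASE2. The serine protease genes ELANE and PRTN3 did not pass the test, at 0.26 and 0.07.

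CYBB, the catalytic subunit of the phagocyte NADPH oxidase, read 30.9, 36.8 and 29.9 CPM in DMSO and 293, 272 and 251 CPM with VTP50469. It rose by 3.07 on the log2 scale (SE 0.12, edgeR adjusted p = 1.124e-16), the smallest adjusted p in the group of secondary and tertiary granule genes. In that group 8 of 20 genes were tested, of which 3 rose (37.5%, beside 4.92% of all genes) and the others did not pass. All 8 had a log2 fold change above 0, with a median of 1.157, and 5 had an unadjusted edgeR p under 0.05. The other raised members were SLPI, a secreted inhibitor of neutrophil proteases, at 1.88, and the chitinase-like gene CHI3L1 at 1.11. SLPI read 41.7, 39.9 and 46.4 CPM in DMSO and 158, 152 and 161 CPM with the drug. CHI3L1 read 293, 309 and 357 CPM against 720, 638 and 708 CPM, so both genes were well expressed before treatment and did not overlap after it.

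In the monocyte and macrophage list 6 of 17 tested genes rose (35.3%, beside 4.92% of all genes) and the others did not pass. Among the raised were the co-stimulatory gene CD86 (1.65), CX3CR1 (1.39), the M-CSF receptor gene CSF1R (1.0) and CCR2 (0.77). Of 14 integrin and adhesion genes tested, 7 rose (50%) and 1, the tetraspanin CD9 (−0.88), fell, with a median of 0.418. ITGB7, the integrin β7 subunit, read 6.22, 6.28 and 6.14 CPM in DMSO and 28.3, 28.3 and 26.3 CPM with VTP50469. The β2 subunit gene ITGB2 read 894, 893 and 902 CPM against 1392, 1447 and 1506 CPM. Both pairs of groups were apart, at log2 fold changes of 2.15 and 0.69. ITGAX (1.52), ICAM3 (1.15), SELPLG (0.53), ITGAL (0.45) and CD44 (0.38) rose too.

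The raised genes with the largest changes included further immune receptors. GAPT, a membrane adaptor gene, read 5.80, 3.36 and 4.09 CPM in DMSO and 35.5, 37.2 and 42 CPM with VTP50469, a log2 fold change of 3.11 (SE 0.19, edgeR adjusted p = 1.333e-12). The receptor gene CD244 moved from 2.90, 4.48 and 3.78 CPM to 16.2, 17.7 and 16.2 CPM, and the adaptor gene PRAM1 from 8.70, 8.52 and 9.92 CPM to 38.5, 36.8 and 36.0 CPM. None of these genes overlapped between treatments, and the treated libraries of CD244 and PRAM1 agreed closely. CD36, the scavenger receptor gene, read 9.74, 8.29 and 7.56 CPM against 36.6, 42.5 and 39.8 CPM. SORL1 rose by 3.14, IFI6 by 1.87 and ADA2 by 2.0. MEGF6 had the largest change of the 12, from 1.04, 0.448 and 0.787 CPM to 14.4, 12.6 and 14.1 CPM, at a log2 fold change of 4.12 (SE 0.35, edgeR adjusted p = 1.622e-09).

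Among 26 myeloid transcription factor genes tested, 6 rose (23.1%, beside 4.92% of all genes) and the others did not pass. The raised genes were CEBPE (1.29), a factor of granulocyte maturation, IRF5 (0.82), TFEC (0.67), SPI1 (0.66), which encodes PU.1, CEBPD (0.64) and FOSL2 (0.47). CEBPE read 2.49, 3.59 and 2.68 CPM in DMSO and 7.18, 7.40 and 6.70 CPM with VTP50469, without overlap. Of 8 stem and progenitor genes tested, 3 fell (37.5%, beside 3.34% of all genes), namely ANGPT1 (−3.25), IGF2BP2 (−0.89) and GATA2 (−0.69). HLA-DRA was the single MHC class II gene of 4 tested that rose, on 4 counts in DMSO and 28 with the drug.

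Of 32 Polycomb subunit genes tested, 2 rose (6.25%) and 1 fell (3.12%), shares near the 4.92% and 3.34% of all genes. BMI1, which encodes the PCGF4 subunit of canonical PRC1, read 118, 114 and 130 CPM in DMSO and 52.8, 56.7 and 50.9 CPM with VTP50469. Its decrease of −1.18 (SE 0.10, edgeR adjusted p = 7.826e-10) left the treatments apart. PHF19 (0.37) and CBX6 (0.26) rose slightly, and each lost its call in at least 6 of 12 alternative analyses. BCOR stood at 62.9 ± 4.21 CPM in DMSO and 65.2 ± 3.20 CPM with the drug, and KDM2B at 89.2 ± 9.98 and 88.5 ± 6.23 CPM. In the list of MLL, Menin and DOT1L complex genes 0 of 17 tested were called by edgeR and 0 by DESeq2, 2 had an unadjusted p under 0.05, and the median log2 fold change was 0.015, beside 0.007 for all genes. MEN1, which encodes Menin, was at 78.8 ± 4.89 and 91.4 ± 11.2 CPM.

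Of 19 ribosome biogenesis genes tested 6 fell (31.6%, beside 3.34% of all genes) and the others did not pass. The lowered genes ran from GNL3 at −0.44, which lost its call in 4 of 12 alternative analyses, to NOP58 at −0.27. In the cholesterol and fatty acid list 6 of 23 fell (26.1%), among them HMGCS1 (−0.81) of sterol synthesis and FASN (−0.55) of fatty acid synthesis. The amino acid response list had 6 of 25 lowered (24%, beside 3.34% of all genes) and 2 raised (8%, close to the 4.92% of all genes). In all 3 lists most members did not pass. The serine pathway gene PSAT1 read 171, 168 and 186 CPM against 88.4, 100 and 102 CPM, and CBS, which makes cystathionine, changed by −0.92. The 2 raised members were the cystine transporter gene SLC7A11 (0.69) and SLC1A4 (0.55).

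Mitosis and S phase genes were near the median of all genes, with CDC20 (0.35) as the 1 of 29 that passed (3.45%, beside 4.92% of all genes raised). CDC20 lost its call in 7 of 12 alternative analyses. In the list of D cyclins, their kinases and inhibitors, 4 of 13 fell (30.8%, beside 3.34% of all genes) and 1, BTG1 (1.04), rose. CDKN2C, which encodes the CDK4 and CDK6 inhibitor p18, read 138, 146 and 175 CPM in DMSO and 60, 57 and 61.8 CPM with VTP50469. It fell by 1.36 on the log2 scale without overlap, and CDK6 itself by 0.75. CDKN1B (−0.48) and the cyclin gene CCND2 (−0.41) were the other lowered members.

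Of 24 lysosome genes tested 7 rose (29.2%, beside 4.92% of all genes) and 1, CTSL (−0.77), fell, with a median of 0.280. The cathepsin gene CTSD read 96.4, 95.7 and 85.7 CPM in DMSO and 177, 173 and 152 CPM with VTP50469. GRN (1.09), which encodes progranulin, MANBA (0.79) and the acid ceramidase gene ASAH1 (0.52) rose too. In the BCL2 family 2 of 15 fell (13.3%, beside 3.34% of all genes), BCL2 (−0.61) and the BH3-only gene BCL2L11 (−0.36), and the BH3-only gene BMF (0.68) rose. The cytokine signalling list had 4 of 21 raised (19%) and 1 lowered (4.76%), and in the interferon list 3 of 13, IFI6, SAMHD1 and BST2, were raised (23.1%). Calls were lost in 6 of 12 alternative analyses for BMF, 5 for BST2 and 4 for BCL2L11. Over the 23 lists 352 genes were tested, of which 54 rose and 46 fell.

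Markers of the labelled cell type were present. All 8 markers of acute myeloid leukaemia cells were tested, and their summed level was 352 to 377 CPM in DMSO and 498 to 519 CPM with VTP50469. The largest part of this rise was MPO, which went from 30.5, 35.9 and 34.6 CPM to 125, 133 and 144 CPM. Of the 8, 5 were raised (62.5%) and 1, FLT3, was lowered (12.5%). Over all genes tested 4.92% rose and 3.34% fell, the shares to set beside all calls of markers given here. Erythroid and megakaryocyte markers summed to 3.15 to 5.39 CPM in DMSO and 8.70 to 9.25 CPM with the drug, with no count for 11 of 14, HBB included. EPOR, the single member tested, rose. Lymphoid markers summed to 7.85 to 9.33 and 14.1 to 16.4 CPM, with CD2, CD3E, CD3G and KLRD1 at 0 and NKG7 raised of 2 tested. Stromal and epithelial markers summed to 3.94 to 4.35 and 5.02 to 6.05 CPM, with EPCAM and PECAM1 among the 9 of 14 at 0. Of 3 tested, 0 were called by edgeR, 0 by DESeq2 and 0 had an unadjusted p under 0.05. The sums of these 3 other cell types were higher with the drug, and their part in the results above was not tested.

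**Figure D2:**
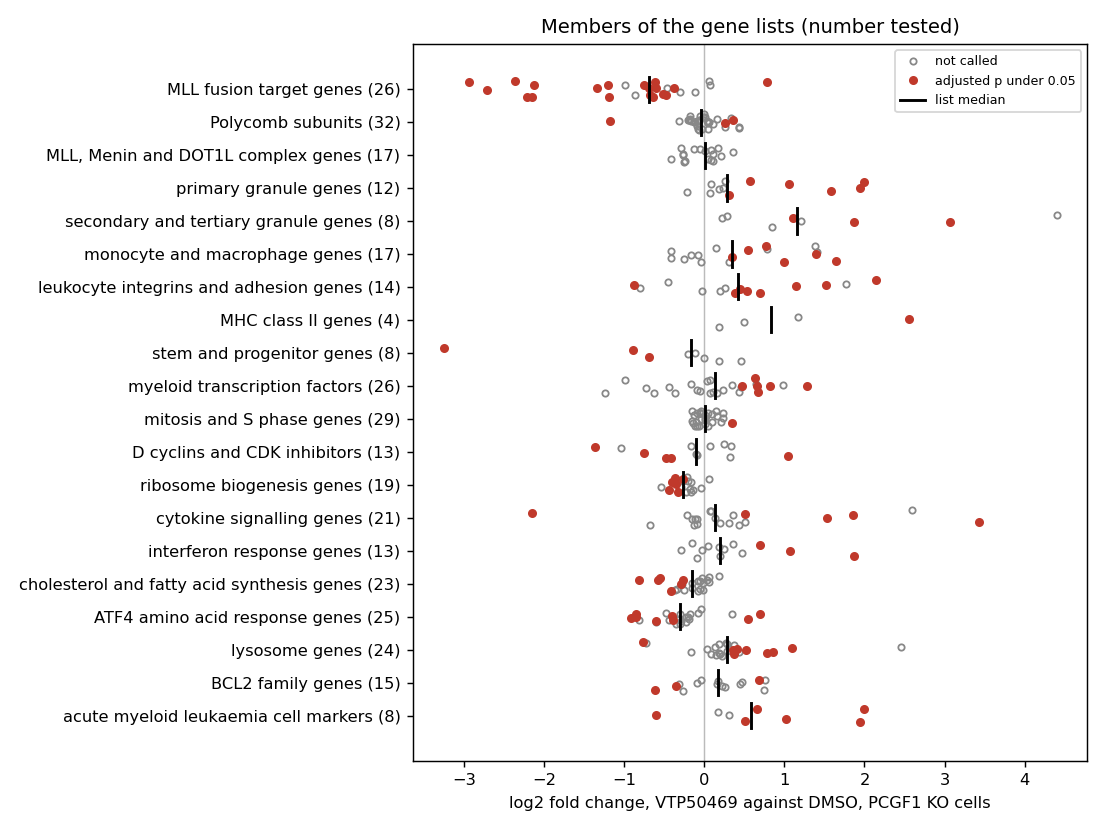
Log2 fold change (VTP50469 against DMSO in PCGF1 KO cells) of each tested member of the lists with at least 4 tested genes. Filled points passed an adjusted p of 0.05, black bars are list medians, and the MLL fusion target genes have a median of −0.683 while the Polycomb subunits sit at −0.041.

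The response of PCGF1 KO cells was set against that of control cells, which do not share libraries with it, to ask whether the drug acted differently without PCGF1. In control cells VTP50469 changed 2000 genes (16.5% of those tested), 8.19% upwards and 8.29% downwards. Of the 1003 genes changed in PCGF1 KO cells, 658 were also called in control cells, which is 65.6% of the former and 32.9% of the latter. The difference between the responses, tested as an interaction, was called for 47 genes, or 0.387% of those tested. These divide into 23 genes called in both responses, 9 called in PCGF1 KO cells alone and 15 called in control cells alone. The change was nearer to 0 in PCGF1 KO cells for 36 of the 47. The count depended on single libraries, with 23 genes without DMSO replicate 3, 24 without VTP50469 replicate 1 and 29 without VTP50469 replicate 2 of the PCGF1 KO cells.

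Of the 24 genes (0.198%) whose change was more positive in PCGF1 KO cells, 21 had a log2 fold change below 0 in control cells. The difference subtracts the control change, so choosing genes by it favours this sign in itself. NAT8L, an aspartate N-acetyltransferase gene, read 19.5, 19.1 and 19.2 CPM in PCGF1 KO DMSO libraries and 20.2, 19.3 and 16.7 CPM with VTP50469, with overlap. In control cells it went from 8.92 ± 1.26 to 2.37 ± 0.688 CPM, and the interaction was 1.87 (SE 0.25, edgeR adjusted p = 0.000151). TRIM7, a ubiquitin ligase gene, stood at 22.3 ± 2.28 and 27.7 ± 3.79 CPM in PCGF1 KO cells and at 6.47 ± 1.34 and 2.02 ± 0.539 CPM in control cells, a difference of 1.98 (SE 0.32). These genes did not pass the test in PCGF1 KO cells alone. CCND2 was at 200 ± 8.93 and 150 ± 3.62 CPM in PCGF1 KO cells and at 24.8 ± 3.43 and 10.3 ± 1.34 CPM in control cells, a difference of 0.86 (SE 0.14, edgeR adjusted p = 0.001637). In each of these 3 genes the PCGF1 KO level was above that of control cells under DMSO by the group means. SORL1 rose in both populations, from 1.93 ± 0.643 to 17.6 ± 0.924 CPM in PCGF1 KO cells and from 33.7 ± 3.70 to 109 ± 16.6 CPM in control cells. Its changes of 3.14 and 1.70 differed by 1.45 (SE 0.27, edgeR adjusted p = 0.005938). CHST2 (1.31) and GAS7 (0.95) also rose more in PCGF1 KO cells.

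MEF2C fell in both populations, to 41.8 ± 2.16 CPM in PCGF1 KO cells and to 24.7 ± 1.6 CPM in control cells, and its changes differed by 0.92 (SE 0.14, edgeR adjusted p = 0.0005106). It was the only MLL fusion target of 26 tested with a difference called by edgeR. For MEIS1 the responses were −2.94 and −4.57 with a difference of 1.64 (SE 0.42, edgeR adjusted p = 0.09156), for EMB the difference was 0.46 (edgeR adjusted p = 0.1326) and for HOXA10 it was 0.74 (edgeR adjusted p = 0.09988), none of which passed. The MEIS1 difference did pass in 2 of 18 alternative analyses, without the filter (edgeR adjusted p = 0.0242) and without control VTP50469 replicate 3 (edgeR adjusted p = 0.0357). The list median was −0.997 in control cells, where 20 members fell and 1 rose, beside −0.683 with 18 lowered and 1 raised in PCGF1 KO cells. Of all genes tested, 8.29% fell and 8.19% rose in control cells, and 3.34% fell and 4.92% rose in PCGF1 KO cells. PBX3 gave −2.12 and −2.28, with a difference of 0.15. Differences were also called for PDGFA (2.41), PACSIN3 (3.02), MYO6 (1.76) and TMEM221 (1.52). Of these, TMEM221 lost its call in 13 of 18 alternative analyses, MYO6 in 11 and PACSIN3 in 7.

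Of the 23 genes (0.189%) with a more negative change in PCGF1 KO cells, 23 had a log2 fold change above 0 in control cells. That sign too is favoured by how the genes were chosen. SLPI stood at 42.7 ± 3.39 CPM in PCGF1 KO cells and 8.06 ± 0.906 CPM in control cells under DMSO, and with VTP50469 it reached 157 ± 4.77 and 82.6 ± 4.23 CPM. The responses of 1.88 and 3.35 differed by −1.47 (SE 0.14, edgeR adjusted p = 9.421e-07), although the treated level was higher in the knockout. CHI3L1 followed the same order, with 320 ± 33.1 CPM in the knockout and 85.9 ± 9.19 CPM in control cells before treatment, and a difference of −1.29. The eosinophil ribonuclease gene RNASE2 rose by 0.31 in PCGF1 KO and by 1.21 in control cells, a difference of −0.90 (SE 0.09, edgeR adjusted p = 9.421e-07). RNASE2CP, a pseudogene with a similar sequence that may share its reads, differed by −0.95.

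MNDA, a nuclear antigen gene of myeloid cells, rose from 30.9 ± 5.51 to 56.6 ± 1.53 CPM in PCGF1 KO cells and from 19.7 ± 7.16 to 95.0 ± 7.75 CPM in control cells, a difference of −1.39 (SE 0.23, edgeR adjusted p = 0.00191). Differences near this size were called for BPI (−1.88), TMTC2 (−1.48), NAV3 (−1.43) and SESN3 (−1.39), of which BPI lost its call in 8 of 18 alternative analyses. Of the granule lists, 7 primary and 8 secondary or tertiary granule genes rose in control cells, where 8.19% of all genes tested rose. In PCGF1 KO cells 6 and 3 rose, beside 4.92% of all genes. All 8 tested secondary or tertiary granule genes had a log2 fold change above 0 there, though most did not pass. The difference between the responses was called for 2 members of each list. S100A8 and S100A9, which encode the subunits of calprotectin, were below the level set for naming genes and are given because of their values. S100A8 read 3.32, 1.57 and 2.05 CPM in PCGF1 KO DMSO libraries and 2.02, 1.85 and 1.34 CPM with the drug, while control cells went from 0.168 ± 0.164 to 4.07 ± 0.183 CPM. S100A9 behaved alike, with 1.52 ± 0.421 and 1.13 ± 0.659 CPM in the knockout. In control cells it went from 0.0668 ± 0.116 to 2.91 ± 0.753 CPM. For both genes the control DMSO mean lay below the floor, so the size of the difference is uncertain. S100A9 reached 2 CPM only in control libraries given VTP50469 or SGC0946, and passed the filter through them. The difference was called for both, with edgeR adjusted p = 0.00377 for S100A8 and 0.003482 for S100A9. As the genes were picked by these values, the p-values lend no support of their own.

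**Figure D3:**
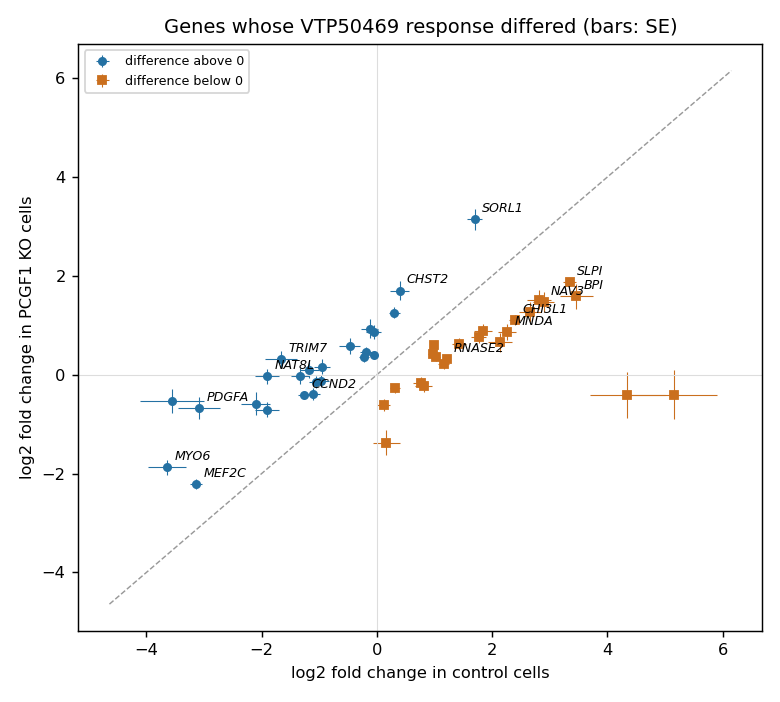
Log2 fold change with VTP50469 in control cells (horizontal) and in PCGF1 KO cells (vertical) of the 47 genes with a called difference, with bars for the SE and a dashed line of equal change. The change is nearer to 0 in PCGF1 KO cells for 36 of the 47 genes.

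Cells edited at BCOR, which encodes another PRC1.1 subunit, served to ask whether the response was shared within the complex. VTP50469 changed 880 genes in BCOR KO cells (7.25%). The responses of PCGF1 KO and BCOR KO cells differed for 6 genes, 0.0494% of those tested, 6 with the lower change in PCGF1 KO cells. That split changed with the method, to 5 higher and 5 lower by DESeq2, 5 and 6 with a replicate block and 35 and 32 without the filter. CHI3L1 went from 59.7 ± 3.87 to 329 ± 23.8 CPM in BCOR KO cells, so that its change of 1.11 in PCGF1 KO cells was lower by 1.35 on the log2 scale (difference −1.35, SE 0.13). For RNASE2 the difference was −0.70 (SE 0.09), for RNASE2CP −0.87 and for VAT1 −0.81 (SE 0.14). MYBPH, a neighbour of CHI3L1 on chromosome 1, stood at 55 ± 2.21 and 52.9 ± 2.23 CPM in PCGF1 KO cells and at 18.3 ± 0.559 and 35.8 ± 3.52 CPM in BCOR KO cells, a difference of −1.02 (SE 0.15). The last gene, CES1P1, rested on single libraries, with 1.24, 59.4 and 2.36 CPM in PCGF1 KO DMSO and 37.2, 59.4 and 1.47 CPM in treated BCOR KO cells, and without PCGF1 KO DMSO replicate 2 its edgeR adjusted p was 0.462. MLL fusion targets had a median of −0.637 in BCOR KO cells, with 15 lowered and 1 raised of 26 tested. Of all genes tested, 3.02% fell and 4.23% rose in BCOR KO cells.

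PCGF1 KO cells given SGC0946 showed how the levels reached with the drugs compared, at doses and times that differ (500 nM for 48 h and 5 μM for 72 h). The drug and the time cannot be told apart in these values. VTP50469 libraries differed from SGC0946 libraries for 105 genes (0.865%), 40 higher (0.329%) and 65 lower (0.535%). Against DMSO, SGC0946 changed 378 genes in these cells (3.11%), 2.19% upwards. MEIS1 was at 3.56 ± 0.987 CPM with VTP50469 and 13.3 ± 1.48 CPM with SGC0946, a log2 difference of −1.90 (SE 0.24, edgeR adjusted p = 9.035e-06). EFNA5 (11.1 ± 0.648 CPM with SGC0946), ZNF521 (25.3 ± 2.62 CPM) and OTP (11.7 ± 0.985 CPM) were lower with VTP50469 by 2.63, 2.39 and 2.01 on the log2 scale (differences of −2.63, −2.39 and −2.01). CDK6-AS1 differed by −3.35 and TBC1D30 by −2.06.

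In the other direction CYBB reached 272 ± 21.4 CPM with VTP50469 and 130 ± 6.46 CPM with SGC0946, a difference of 1.07 (SE 0.10, edgeR adjusted p = 2.204e-07). MEGF6 stood at 13.7 ± 0.934 and 1.48 ± 0.569 CPM, a difference of 3.24 (SE 0.31, edgeR adjusted p = 2.12e-07). The difference was 1.14 for CD36 and 1.12 for OSCAR, which encodes an immunoglobulin-like receptor. CHST2 (0.75) and ZNF428 (1.51) were called as well and lost their calls in 6 of 12 alternative analyses. ITGB7, CD86 and SORL1, which had risen against DMSO, showed differences of 0.12, −0.05 and 0.08 that did not pass. The count fell to 68, 54, 63, 55 and 67 genes without VTP50469 replicates 1 or 2 or SGC0946 replicates 1, 2 or 3.

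**Figure D4:**
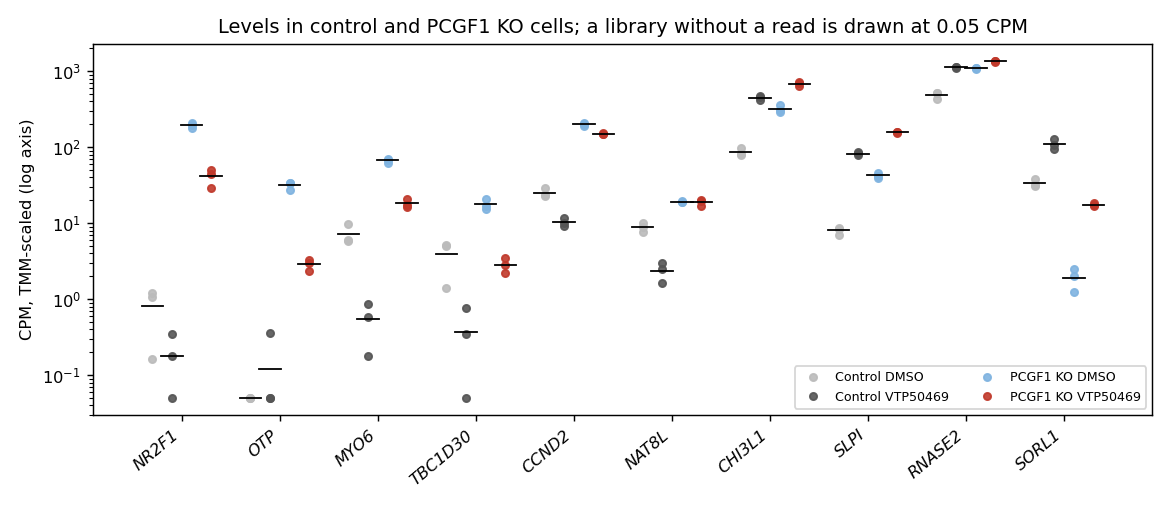
Level of 10 genes in control and PCGF1 KO libraries with DMSO or VTP50469, in TMM-scaled CPM on a log axis, 3 libraries a group, with libraries that had no read drawn at 0.05 CPM. SLPI starts at 42.7 CPM in PCGF1 KO and 8.06 CPM in control cells, and NAT8L goes from 19.2 to 18.8 CPM with the drug in PCGF1 KO cells and from 8.92 to 2.37 CPM in control cells.

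A population edited at both PCGF1 and BCOR and given VTP50469 for 96 h, from a separate table, allowed the direction of the changes to be looked up at a later time. There 3525 of 12741 genes were called (27.7%), 1345 higher (10.6%) and 2180 lower (17.1%), or 5289 in a fit blocked by replicate number. Depth moved with the drug in that experiment, with 30970808 to 47065530 reads on genes in DMSO libraries and 491592 to 6483251 in treated ones, and its part in the result was not tested. The split also moved with the scaling, to 1866 higher and 1449 lower with relative log expression factors and to 2240 and 848 with library sizes alone. The all-gene median moved from −0.104 to 0.217 and 0.444 respectively. The count was 1721 without DMSO replicate 2, 2272 without DMSO replicate 3, 2033 without VTP50469 replicate 1 and 2225 without VTP50469 replicate 2, the library of the lowest depth.

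Of 352 lowered genes that were matched by symbol in that table, 144 were called lower (40.9%) and 17 higher, where 20.7% of all 9968 matched genes were lower. Of 533 matched raised genes 99 were called higher (18.6%) and 69 lower, where 11% of the matched genes were higher. PBX3, MEIS1, ZNF521, REEP3 and CDKN2C fell there too, at −2.12, −2.88, −3.08, −1.64 and −2.92. CYBB (2.88), MPO (1.79), MEGF6 (4.70) and BPI (4.26) rose. JMJD1C (1.86) and GATA2 (2.09) were higher there although they had fallen at 48 h, and SLPI was at 0.08 and did not pass. These shares and changes came from the fit without a replicate block.

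Since PRC1.1 is drawn to CpG islands, the 300 bases before the canonical start of 11834 tested genes were read from hg38 (GENCODE v44) and their CG dinucleotides counted. The median was 22 CG in the 584 raised genes (quartiles 8.00 and 31.25), 25 in the 400 lowered genes (19.0 and 34.0) and 24 in all (16.0 and 32.0). Windows with fewer than 5 CG made up 15.8% of the raised, 4.5% of the lowered and 8.2% of all genes. The PU.1 motif GAGGAAGT, searched on both strands, was in 5.31% of raised, 2% of lowered and 2.47% of all windows. For the C/EBP motif TTNNGCAA the shares were 10.4%, 9.5% and 8.24%, for the RUNX motif TGTGGT 12.8%, 9.5% and 9.8%, and for the cyclic AMP element TGACGTCA 1.71%, 3.5% and 3.19%. These shares are a description of letters in a window and were given no test.

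The 3 windows below, picked as examples, are from hg38, given 5′ to 3′ on the strand of the gene with each CG in capitals. All 3 lie outside the quartiles of their sets, so they overstate the difference between raised and lowered genes. GAPT (chr5:58491135-58491434, plus strand) is a raised gene with 4 CG. In GAPT the PU.1 motif lies on the opposite strand, with its first base 60 bases before the start. BMI1 (chr10:22320799-22321098, plus strand) and EFNA5 (chr5:107670938-107671237, minus strand) are lowered genes with 43 and 45 CG.
GAPT: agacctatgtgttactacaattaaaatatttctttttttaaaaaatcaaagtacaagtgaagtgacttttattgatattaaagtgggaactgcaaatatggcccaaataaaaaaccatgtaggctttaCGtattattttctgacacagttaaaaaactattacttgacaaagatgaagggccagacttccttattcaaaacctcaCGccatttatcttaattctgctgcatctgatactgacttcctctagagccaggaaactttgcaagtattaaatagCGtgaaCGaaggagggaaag
BMI1: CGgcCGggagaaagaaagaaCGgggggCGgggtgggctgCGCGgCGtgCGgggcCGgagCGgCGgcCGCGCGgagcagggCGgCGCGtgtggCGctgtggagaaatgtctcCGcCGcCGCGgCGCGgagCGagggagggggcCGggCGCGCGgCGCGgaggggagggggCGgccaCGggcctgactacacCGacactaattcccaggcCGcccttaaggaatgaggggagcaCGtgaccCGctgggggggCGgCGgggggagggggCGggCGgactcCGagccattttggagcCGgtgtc
EFNA5: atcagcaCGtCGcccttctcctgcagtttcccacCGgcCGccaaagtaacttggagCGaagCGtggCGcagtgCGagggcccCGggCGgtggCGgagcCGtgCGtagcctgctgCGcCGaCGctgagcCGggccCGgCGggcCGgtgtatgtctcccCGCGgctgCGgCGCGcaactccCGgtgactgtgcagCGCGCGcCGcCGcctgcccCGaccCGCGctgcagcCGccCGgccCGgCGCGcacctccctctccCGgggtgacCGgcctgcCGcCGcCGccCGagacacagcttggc

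Other named genes spread widely within both sets. Among the raised genes CYBB and CD36 had 1 CG each and ITGB7 had 2, whereas MEGF6 had 28 and SORL1 had 51. Among the lowered genes PBX3 had 56 and ZNF521 had 57, whereas MEIS1 had 17 and CDKN2C had 11.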

How the data were processed

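RNA was measured by 3′ RNA-seq. The authors deposited whole-number counts of reads per gene, not normalized and with replicates kept apart, after trimming with bbmap and alignment to GRCh38 by STAR. The counter of this table and its strand setting are not given in the sources used here, and the extraction protocol names more than 1 library kit. Lines that name no gene were left out of library sizes. Symbols and positions came from GENCODE v44 (hg38) joined on the Ensembl identifier, which named 97.5% of tested genes.

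Genes that reached 2 CPM in 2 or more libraries were fitted by the quasi-likelihood method of edgeR 4.0.16 (R 4.3.3) on the deposited counts, with TMM scaling and 1 coefficient per group over all 27 libraries, and Benjamini-Hochberg adjustment. Differences between responses were interaction contrasts. CPM use TMM-scaled library sizes. The fit was tested on simulated counts. Alternatives were other scalings, no filter, a replicate block, the compared libraries alone, DESeq2 1.42 and each library left out. The PCGF1/BCOR KO table of 24 libraries was fitted apart. Its replicate numbers paired the DMSO and VTP50469 libraries, whose deviations from the group means correlated at 0.203, 0.169 and 0.186. The shares and gene changes given from it used no replicate block, which was run as an alternative for the count. Columns of other samples that were not used number 8 in these tables.

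The comparison, gene lists and tests were chosen with earlier results of these data known. Genes named were those the study names for MOLM13, up to 4 called members per list by adjusted p and the members of the first 3 lists, the 12 raised and 12 lowered with the largest changes (at least 10 CPM, no overlap), 6 per direction of each difference and genes at the floor of 3 counts. Other list members are named as called. Some items are not reported here.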

Additional observations from a re-analysis of the deposited data

Results flagged for a closer look

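Of the 47 genes whose response to VTP50469 differed between PCGF1 KO and control cells by the interaction test of edgeR, 13 were flagged. All but MEF2C, which the study names for MOLM13, were chosen by the size of the difference. Genes below the level set for naming, such as S100A9 (−5.56) and S100A8 (−4.75), whose control DMSO means were below the floor, are left out here. The differences on the log2 scale (PCGF1 KO minus control) were above 0 for PACSIN3 (3.02), PDGFA (2.41), TRIM7 (1.98), NAT8L (1.87), MYO6 (1.76), TMEM221 (1.52) and MEF2C (0.92). They were below 0 for BPI (−1.88), TMTC2 (−1.48), SLPI (−1.47), NAV3 (−1.43), MNDA (−1.39) and SESN3 (−1.39).

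Between PCGF1 KO and BCOR KO cells the differences were −8.88 for CES1P1, −1.35 for CHI3L1, −1.02 for MYBPH, −0.87 for RNASE2CP, −0.81 for VAT1 and −0.70 for RNASE2. The CES1P1 value combines a change of −4.18 in PCGF1 KO cells and of 4.70 in BCOR KO cells, each with libraries of a group far apart.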

How the results depend on the processing

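The PCGF1 KO response stayed within 1.5 times its 1003 genes under every alternative run, from 670 with the compared libraries alone to 1336 with a replicate block, and leaving out 1 library gave 692 to 845. List members called ranged from 82 to 110. The difference from control cells (47 genes) gave 193 with no filter, 73 with a replicate block, 15 with the compared libraries alone and 75 with DESeq2, and 23 to 67 with 1 library left out. The difference from BCOR KO cells (6 genes) gave 67 with no filter, 11 with a replicate block and 10 with DESeq2, and 5 to 8 with 1 library left out. VTP50469 against SGC0946 (105 genes) gave 192 with no filter and 158 with a replicate block, and 54 to 76 with 1 library left out. The PCGF1/BCOR KO response gave 5289 with its replicate block and 1721 to 2939 with 1 library left out. The cause of these moves was not tested. Same-numbered DMSO and VTP50469 libraries of PCGF1 KO cells correlated in their deviations at 0.0216, 0.0064 and 0.0575, below the 0.1 asked for pairing. Replicate 2 in DMSO correlated more with replicate 1 of the treated libraries (0.0268). Other groups in the contrasts had values on both sides of 0.1. Control DMSO and VTP50469 libraries gave 0.0286, 0.1448 and 0.1173. With VTP50469, PCGF1 KO and control libraries gave 0.0509, 0 and 0.1881. In PCGF1 KO cells SGC0946 and VTP50469 libraries gave 0.0489, −0.0344 and 0.1497. The number still marked library quality, as replicate 3 had the lowest share of mitochondrial reads and of reads on no gene in 9 of 9 groups, and the counts with the block stand above. Of the values of single genes under the alternatives, 2354 kept their side of the threshold, 157 lost the call, 7 gained one and 0 reversed a call. Estimates of uncalled genes could cross 0, as for PCGF1 (−0.31 to 0.2963) and HOXA10 (−0.0118 to 0.1041) in the PCGF1 KO response. Genes that did not reach 2 CPM in 2 or more of the 27 libraries were not tested. A gene could pass this filter through groups other than the 2 compared. S100A9 did so, at 1.52 ± 0.421 CPM in DMSO and 1.13 ± 0.659 CPM with VTP50469 in PCGF1 KO cells.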

Other observations

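A small set of genes was called in PCGF1 KO cells with 3 counts or fewer in total in 1 treatment, 6 raised and 1 lowered, and their fitted fold changes are not bounds. SERPINB2, which encodes plasminogen activator inhibitor type 2 of monocytes, had 0 counts in the 3 DMSO libraries and 29 with VTP50469, at least 8.80-fold higher when 3 counts over the group are taken as the floor. IL1B, the interleukin-1β gene, had 1 and 16 counts, and CLEC1B, a C-type lectin receptor gene, also had 1 and 16. MEI1 had 1 and 15, NEGR1 2 and 27, and HRC, the lowered gene, 19 and 1. Calls were lost in 5 of 11 alternative analyses for MEI1, 4 for IL1B and 3 each for CLEC1B and HRC.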
